A study of Mus musculus with 6 samples.

Results

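Antibody transcripts were measured in liver RNA through 35 immunoglobulin probe sets, which read the constant, variable and joining segments of the heavy and light chains and the J chain. They were taken by name from 41345 probe sets in all: a probe set belongs to them if at least 1 of its gene symbols is an Ighm, Ighg, Igha, Ighd, Ighe, Ighv, Igkv, Igkc, Igkj, Iglv, Iglc or Iglj symbol or Jchain, with Ighmbp2, a helicase of unrelated function, left out. The probe sets carry 24 different symbols. A single symbol stood on 30 of them, and 5 carried several. The symbols covered mu (Ighm, 7 probe sets), gamma (Ighg3, 2), heavy variable (3), kappa variable (16), kappa joining (Igkj1, 1) and lambda (Iglv1, 1) segments, Jchain (1), and 4 probe sets whose symbols cross these classes. No probe set named Igha, Ighd, Ighe, Igkc or Iglc was among them, and alpha chains are not analysed here.

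The 6 livers came from male mice, 3 of Balb/c and 3 of Balb/cBy, substrains of one albino inbred line. All had been kept in individual cages and were 20 weeks old, with 12 weeks on a diet whose fat gave 58% of the energy, started at 8 weeks of age. The labels name no allele, supplier or other treatment, and every mouse received this diet, so that the values compare substrains on fat and not the effect of fat. As background, the Balb/cBy substrain carries a known deletion in Acads, a mitochondrial acyl-CoA dehydrogenase. Per the labels, the replicates of a substrain are biological ones.

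An antibody is built of paired heavy and light chains. Each chain joins a variable domain, assembled in every B cell clone from one of many variable segments, to a constant region that sets the class. The mu chain makes IgM, the first class a B cell produces, and the J chain links IgM and IgA units into polymers. Plasma cells, the secreting descendants of B cells, hold very large amounts of these transcripts. The liver holds few B lineage cells, in its blood spaces and portal tracts, and its cells take up antibodies and pass polymeric IgA into bile. In RNA of whole liver, a different number of such cells and a different amount of RNA per cell cannot be told apart.

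The data are log2 values of RMA, a summary of the probes of a set after background correction and normalization. Array medians lay between 7.66 and 7.74, and correlations between arrays over all probe sets between 0.972 and 0.988. Albumin (Alb), the defining transcript of hepatocytes, stood between 14.16 and 14.22 on every array. A level is that of its own probe set and is not set against another probe set's. Segments of one variable family are close in sequence, so a probe set can also read relatives of the segment that names it, and values of single segments are uncertain to that extent.

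The family was singled out because Ighm, kappa segments and Jchain were already known to lie among the genes that differed most in these arrays. The difference between the substrains is therefore given as a description. Of the 35 probe sets, 33 had a higher mean in Balb/cBy, where 48.9% of all probe sets did. The median difference, Balb/cBy minus Balb/c, was 0.74 on the log2 scale, or 1.67-fold, against 0.00 for all probe sets, and differences ran from -0.24 to 2.44. The groups did not overlap, with Balb/cBy higher, for 20 of the 35 (4.35% of all probe sets), and they did not overlap in the other direction for 0 of the 35 (3.57% of all). A difference above 1 was seen for 13 of the 35 (0.288% of all), and for 7 without Balb/cBy replicate 3. These counts rest on the contrast that drew attention to the family and support nothing further.

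Single probe sets did not pass a test over the whole table. In limma, 0 of the 35 and 0% of all 41345 probe sets passed a Benjamini-Hochberg adjusted p of 0.05, and the smallest adjusted p among the 35 was 0.499. An unadjusted p under 0.05 was reached by 22 of them, all higher in Balb/cBy, a direction in which 2.38% of all probe sets reached it, and by 0 lower (1.26% of all). That count was 14 without Balb/cBy replicate 2 and 12 in the ordinary test without moderation, which also passed 0 after adjustment. With 3 arrays a group, an exact permutation test cannot give a p below 0.1.

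The J chain gene lies outside the rearranging loci and has an ordinary promoter. Of the 24 symbols it alone had a promoter among the RefSeq sequences used here (build GRCm38.p6). For that reason the 250 bases before its start, chr5:88527898-88528147 on the minus strand, are shown. Capitals mark GGAA or its reverse complement TTCC, the core letters of sites for Ets family factors, to which the B lineage factor Spi-B belongs.
Jchain: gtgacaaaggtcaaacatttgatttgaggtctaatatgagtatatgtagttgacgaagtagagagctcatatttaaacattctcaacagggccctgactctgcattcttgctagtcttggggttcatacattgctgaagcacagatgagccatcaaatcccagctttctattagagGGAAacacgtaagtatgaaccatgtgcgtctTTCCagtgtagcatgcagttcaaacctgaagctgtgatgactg
There were 2 matches, starting 74 and 43 bases before the start, and 93.4% of 32851 promoter windows of this length hold at least 1 on either strand. The octamer ATGCAAAT, known from promoters of variable segments, was searched on both strands as well. It had 0 matches in this window, and 1.6% of all windows hold it.

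Jchain, read by 1 probe set, stood at 7.09, 6.91 and 7.10 in Balb/c replicates 1, 2 and 3 and at 7.44, 8.31 and 8.70 in Balb/cBy. The Balb/c arrays lay close together, and all 3 Balb/cBy arrays lay above them, with replicate 1 nearest. The means were 7.03 ± 0.11 and 8.15 ± 0.65 (SD, n = 3 each), a difference of 1.12 (SE 0.30) or 2.18-fold.

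**Figure D1:**
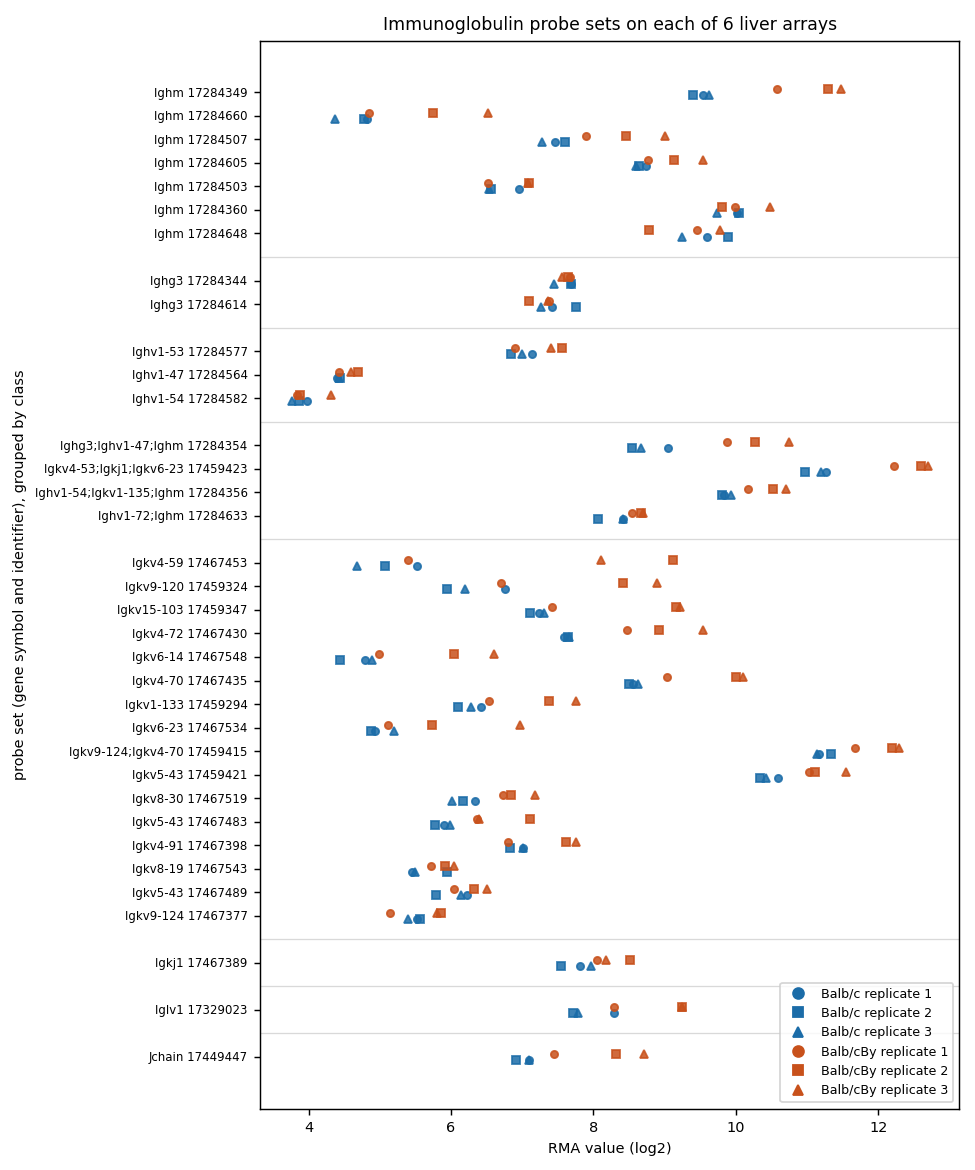
RMA value (log2, horizontal axis) of each of the 35 immunoglobulin probe sets (vertical axis, symbol and identifier, grouped by class) on each of the 6 arrays; blue marks Balb/c, orange Balb/cBy, and the marker shape the replicate. The orange points of most kappa variable probe sets lie to the right of the blue ones, with replicate 1 (circle) lowest of its group in 31 of the 35, while both Ighg3 probe sets overlap.

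Ighm, the mu constant region gene, names 7 probe sets, and these differed widely among themselves. The median difference over the 7 was 0.49, or 0.29 without Balb/cBy replicate 3, with a range from -0.24 to 1.59. The groups did not overlap for 4 of them, all with Balb/cBy higher (4.35% of all probe sets). The annotation assigns all 7 to 1 gene, and the sources used here do not say which part of the heavy chain locus each one reads.

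Ighm probe set 17284349 differed most of these. It stood at 9.54, 9.40 and 9.63 in Balb/c and at 10.58, 11.29 and 11.47 in Balb/cBy, so that every Balb/cBy array lay above every Balb/c array. The difference was 1.59 (SE 0.23), or 3.02-fold. Ighm probe set 17284507 stood at 7.47, 7.60 and 7.27 in Balb/c and at 7.89, 8.45 and 9.01 in Balb/cBy, a difference of 1.0 (SE 0.27). Its groups did not overlap either.

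Ighm probe set 17284660 had low signal, at 4.82, 4.78 and 4.37 in Balb/c and 4.85, 5.75 and 6.53 in Balb/cBy. Balb/cBy replicate 1 barely exceeded the Balb/c arrays, and the difference of 1.05 (SE 0.39) came from replicates 2 and 3. Ighm probe set 17284605 differed by 0.49 (SE 0.19), from 8.66 ± 0.08 to 9.14 ± 0.39 (SD, n = 3 each). The groups were apart there as well, with Balb/cBy replicate 1 at 8.77 next to Balb/c replicate 1 at 8.74.

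The remaining 3 Ighm probe sets overlapped between the substrains. Ighm probe set 17284503 differed by 0.22 (SE 0.19) and Ighm probe set 17284360 by 0.16 (SE 0.19). Ighm probe set 17284648 differed by -0.24 (SE 0.28). Single arrays set the sign of the smaller ones: 17284360 stood at -0.03 without Balb/cBy replicate 3, and 17284648 at 0.03 without Balb/cBy replicate 2.

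Ighg3, the constant region gene of the gamma3 chain of IgG3, named 2 probe sets alone. Both overlapped between the substrains, as 3 of the 7 Ighm probe sets did. For these 2 as well, the sources used here do not say which part of the locus is read. Ighg3 probe set 17284344 stood at 7.68, 7.69 and 7.44 in Balb/c and at 7.67, 7.64 and 7.56 in Balb/cBy, a difference of 0.02 (SE 0.11). Ighg3 probe set 17284614 stood at 7.42, 7.75 and 7.26 in Balb/c and at 7.37, 7.09 and 7.36 in Balb/cBy, a difference of -0.21 (SE 0.15). Whether the gamma and mu differences are unequal was not tested.

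Heavy variable segments named alone were 3, all of the Ighv1 family, and they overlapped between the groups. Ighv1-53 differed by 0.29 (SE 0.18), Ighv1-47 by 0.15 (SE 0.10) and Ighv1-54 by 0.14 (SE 0.15). Ighv1-47 and Ighv1-54 had low signal, at most 4.69 on any array. Ighv1-54 stood at -0.01 without Balb/cBy replicate 3.

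The 5 probe sets that carry several symbols were all higher in Balb/cBy, and in all 5 the groups did not overlap (4.35% of all probe sets). Probe set 17459423, named Igkv4-53, Igkj1 and Igkv6-23, stood at 11.26, 10.97 and 11.20 in Balb/c and at 12.22, 12.59 and 12.69 in Balb/cBy. Balb/cBy replicate 1 was the lowest of its group here too, but far above every Balb/c array, and the difference of 1.36 (SE 0.15) was 2.56-fold. Probe set 17284354, named Ighg3, Ighv1-47 and Ighm, stood at 9.04, 8.55 and 8.67 in Balb/c and at 9.87, 10.26 and 10.74 in Balb/cBy. Its difference was 1.54 (SE 0.24), whereas the probe sets of Ighg3 alone differed by 0.02 and -0.21 and that of Ighv1-47 alone by 0.15.

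Probe set 17284356, named Ighv1-54, Igkv1-135 and Ighm, differed by 0.61 (SE 0.15), and probe set 17284633, named Ighv1-72 and Ighm, by 0.34 (SE 0.13). Probe set 17459415, named for the kappa segments Igkv9-124 and Igkv4-70, differed by 0.84 (SE 0.17). Read alone, Igkv4-70 differed by 1.16 and Igkv9-124 by 0.10. The probe sets with 1 symbol had a median difference of 0.74. Of these 30, 28 were higher in Balb/cBy (48.9% of all probe sets) and 15 were higher without overlap (4.35% of all).

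Kappa light chains are the main light chains of mouse antibodies, and their variable segments made up the largest class. All 16 kappa variable probe sets had a higher mean in Balb/cBy, with a median difference of 0.89 and a range from 0.10 to 2.44. The groups did not overlap for 9 of the 16, with Balb/cBy higher (4.35% of all probe sets). In every one of the 16 the lowest Balb/cBy array was replicate 1.

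Igkv4-72 stood at 7.58, 7.65 and 7.66 in Balb/c and at 8.47, 8.92 and 9.53 in Balb/cBy. The Balb/c values were nearly equal, and the difference of 1.35 (SE 0.25) was 2.54-fold. Igkv4-70 stood at 8.56, 8.49 and 8.62 in Balb/c and at 9.04, 10.001 and 10.10 in Balb/cBy, a difference of 1.16 (SE 0.27). The groups were apart in both segments.

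In other segments Balb/cBy replicate 1 lay at or near the Balb/c level while replicates 2 and 3 stood far above it. Igkv15-103 stood at 7.24, 7.11 and 7.30 in Balb/c and at 7.42, 9.16 and 9.22 in Balb/cBy, a difference of 1.38 (SE 0.46). Igkv6-14 stood at 4.79, 4.45 and 4.89 in Balb/c and at 4.99, 6.04 and 6.60 in Balb/cBy, a difference of 1.17 (SE 0.38). Igkv1-133 stood at 6.42, 6.10 and 6.27 in Balb/c and at 6.53, 7.37 and 7.76 in Balb/cBy, a difference of 0.96 (SE 0.30).

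Igkv4-59 had the largest difference of all 35, at 2.44 (SE 0.87). It stood at 5.53, 5.08 and 4.67 in Balb/c and at 5.40, 9.12 and 8.10 in Balb/cBy. Replicate 1 lay inside the Balb/c range, so that the groups overlapped in spite of the size of the mean difference. Igkv9-120 followed, with 6.76, 5.94 and 6.19 in Balb/c and 6.71, 8.42 and 8.89 in Balb/cBy, a difference of 1.71 (SE 0.54). Here, too, replicate 1 fell within the Balb/c values.

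Some segments were high in 1 liver above all. Igkv6-23 stood at 4.93, 4.88 and 5.20 in Balb/c and at 5.12, 5.74 and 6.96 in Balb/cBy, with replicate 3 exceeding the next array by 1.23. Igkv4-59 was highest in replicate 2, by 1.02 over replicate 3. These 2 were the only members in which a single array exceeded all others by more than 1 (0.648% of all probe sets). Among the 35, the highest array was Balb/cBy replicate 3 for 24, Balb/cBy replicate 2 for 8, Balb/cBy replicate 1 for 0 and a Balb/c array for 3. Over all probe sets these shares were 9.72%, 21.2%, 20.1% and 49%.

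Igkv5-43 is read by 3 probe sets, which all pointed the same way but to different extents. Igkv5-43 probe set 17459421 differed by 0.78 (SE 0.16), from 10.45 ± 0.13 to 11.22 ± 0.28 (SD, n = 3 each). Igkv5-43 probe set 17467483 differed by 0.74 (SE 0.21), and Igkv5-43 probe set 17467489 by 0.24 (SE 0.17). The groups were apart in the first and second and overlapped in the third.

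By family, the 4 probe sets named for Igkv4 segments alone had a median difference of 1.25 and a range from 0.44 to 2.44. The 3 of Igkv5, all of 1 gene, had a median of 0.74. Families with fewer probe sets were Igkv6, with a median of 1.05 over 2, Igkv9, with 0.91 over 2, and Igkv8, with 0.50 over 2. Within Igkv9 the members were far apart, with Igkv9-124 at 0.10 and Igkv9-120 at 1.71. Within Igkv8, Igkv8-30 differed by 0.74 and Igkv8-19 by 0.26.

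Igkj1, a kappa joining segment, stood at 7.81, 7.54 and 7.97 in Balb/c and at 8.05, 8.51 and 8.18 in Balb/cBy, a difference of 0.47 (SE 0.16) without overlap. Lambda chains, the rarer light chains of mice, were read by Iglv1 alone. Iglv1 stood at 8.28, 7.71 and 7.78 in Balb/c and at 8.29, 9.25 and 9.24 in Balb/cBy, a difference of 1.0 (SE 0.29). Balb/cBy replicate 1 and Balb/c replicate 1 were nearly equal in it.

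**Figure D2:**
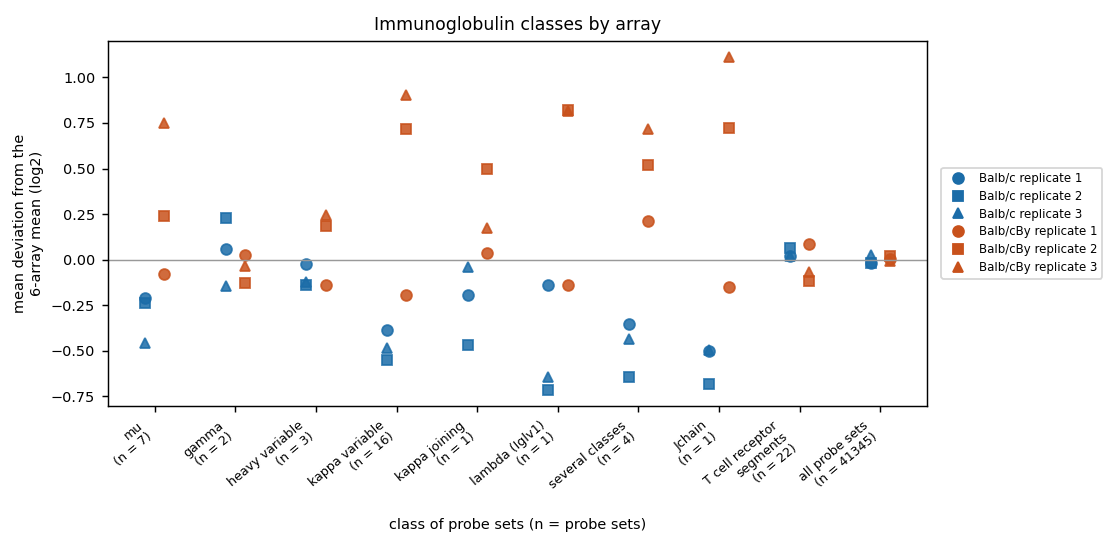
Mean deviation of each class of probe sets from its mean over the 6 arrays (log2, vertical axis), with 1 point per array; T cell receptor segments and all probe sets stand at the right for comparison. For kappa variable segments the Balb/c arrays lie at -0.39, -0.55 and -0.49, Balb/cBy replicate 1 at -0.19 and replicates 2 and 3 at 0.72 and 0.90, while gamma and T cell receptor points stay within 0.23 of the line at 0.

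The Balb/cBy livers differed from each other much more in these transcripts than the Balb/c livers did. The SD over the 3 arrays had a median of 0.40 in Balb/cBy and 0.16 in Balb/c over the 35 probe sets, and it was larger in Balb/cBy for 31 of them. Over all probe sets the medians were 0.15 and 0.14, and 53% had the larger SD in Balb/cBy. Replicate 1 was the lowest Balb/cBy array for 31 of the 35 (33.5% of all probe sets). Set against the Balb/c mean, replicates 1, 2 and 3 had median differences of 0.26, 0.73 and 1.0 over the 35, and of 0.02, 0.00 and -0.02 over all probe sets.

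Every Balb/cBy liver stood above Balb/c in part of the family. Replicate 1 exceeded all 3 Balb/c arrays in 20 of the 35, replicate 2 in 29 and replicate 3 in 32. Over all probe sets these shares were 27.2%, 28% and 19.8%. Without replicate 1 the median difference of the 35 was 0.86 and the groups were apart in 29 of them, where 12% of all probe sets were apart in that direction. The gap between replicate 1 and the other Balb/cBy arrays was uneven. For the Ighm, Ighg3 and Ighv1-47 probe set, replicate 1 stood at 1.12 and the mean of replicates 2 and 3 at 1.75. For Igkv4-59 the gap was larger (0.30 against 3.52), and for the Ighv1-72 and Ighm probe set smaller (0.25 against 0.39).

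**Figure D3:**
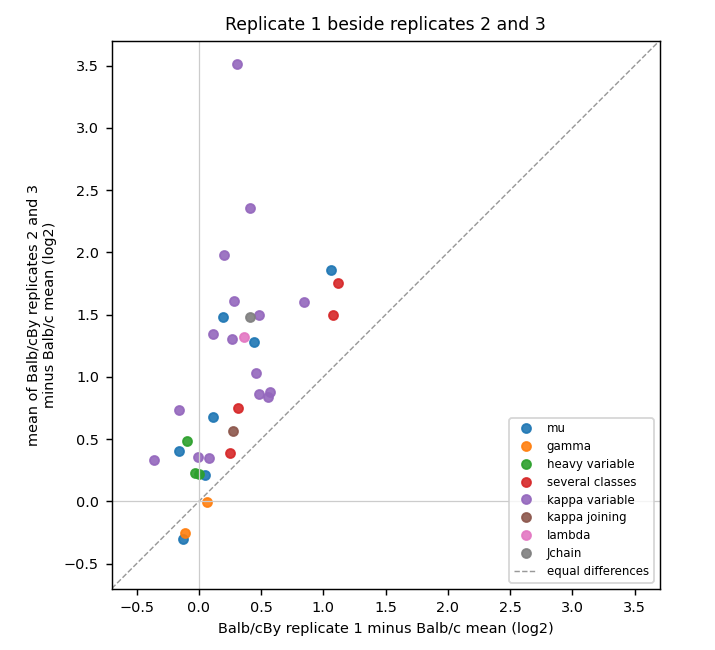
Difference of Balb/cBy replicate 1 from the Balb/c mean (log2, horizontal axis) and of the mean of Balb/cBy replicates 2 and 3 from the Balb/c mean (log2, vertical axis), with 1 point per immunoglobulin probe set, coloured by class; the dashed line marks equal differences. Most points lie above the line, Igkv4-59 farthest, at 0.30 and 3.52.

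Of 16 measured B cell markers, 6 were higher and 10 lower in Balb/cBy, with a median difference of -0.04, and 0 passed limma's adjusted p of 0.05. As 0% of all probe sets and 0 of the 35 immunoglobulin probe sets passed, this count does not set a list apart. The mean of the list lay between 7.69 and 7.77 in Balb/c and between 7.64 and 7.79 in Balb/cBy. Whether the markers of this list stood above background was not tested. Most of the list lay close to 0. Examples were Pax5, the B lineage commitment factor, at -0.00 (SE 0.10), the inhibitory receptor Cd22 at 0.02 (SE 0.12) and the scaffold Bank1 at 0.03 (SE 0.09). Of the 16 genes, 3 were lower in Balb/cBy without overlap (3.57% of all probe sets). The difference between this list and the immunoglobulins was not tested.

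Ms4a1, which encodes the B cell surface protein CD20, stood at 6.24, 6.34 and 6.40 in Balb/c and at 6.13, 5.99 and 6.04 in Balb/cBy, a difference of -0.27 (SE 0.09). Cd79b, a signalling chain of the B cell receptor, stood at 8.26, 8.35 and 8.17 in Balb/c and at 8.08, 7.92 and 7.96 in Balb/cBy, a difference of -0.27 (SE 0.10). Cd79a, its partner chain, stood at 7.10, 7.28 and 7.07 in Balb/c and at 7.02, 6.90 and 7.0 in Balb/cBy, a difference of -0.17 (SE 0.10). In all 3 genes every Balb/cBy array lay below every Balb/c array, as 3.57% of all probe sets did. These differences kept their sign without each array in turn.

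Fcmr, the receptor for the constant part of IgM on B cells, differed by -0.19 (SE 0.10), with overlap. Spib, the Ets factor of the B lineage, differed by 0.24 (SE 0.11). It was the 1 of the 16 listed B cell genes that was higher without overlap (4.35% of all probe sets). Ly6d, a marker of B lineage commitment that other cells also express, had the largest difference upward of the list, 0.42 (SE 0.28), from its value of 9.83 in Balb/cBy replicate 1. That array was the lowest Balb/cBy array for most immunoglobulins.

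Of 14 measured plasma cell markers, 8 were higher and 6 lower, with a median difference of 0.06, and 0 passed (0% of all probe sets). The mean of the list lay between 8.21 and 8.36 in Balb/c and between 8.36 and 8.42 in Balb/cBy. Mzb1, a chaperone of antibody secretion, differed by 0.06 (SE 0.12). Tnfrsf17, which encodes the plasma cell receptor BCMA, differed by 0.09 (SE 0.10). Pou2af1, a coactivator at octamer sites, differed by -0.07 (SE 0.12), and Prdm1, the transcription factor Blimp-1, by -0.03 (SE 0.13).

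Xbp1 was the 1 plasma cell marker of the 14 whose groups did not overlap, with Balb/cBy higher (4.35% of all probe sets). This transcription factor of the secretory pathway is also abundant in hepatocytes. It stood at 11.44, 11.20 and 11.54 in Balb/c and at 11.74, 11.94 and 11.59 in Balb/cBy, a difference of 0.37 (SE 0.14). Derl3, which serves degradation at the endoplasmic reticulum, differed by 0.43 (SE 0.27) and was highest, at 9.53, in Balb/cBy replicate 1. The Derl3 difference was 0.17 without that array. Fkbp11, of the same list, differed by 0.29 (SE 0.15) and Txndc5 by 0.17 (SE 0.14), both with overlap. Replicate 1 was the lowest Balb/cBy array in both genes, and without it they differed by 0.41 and 0.30. Whether differences in B lineage cells have a part in the immunoglobulin values was not tested.

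Genes that assemble or diversify antibody genes were at similar values in both substrains. Of 6 measured, 1 was higher and 5 were lower, with differences from -0.12 to 0.00. Igll1, a surrogate light chain of B cell precursors, differed by -0.07 (SE 0.12). Rag2, a subunit of the recombinase, differed by -0.12 (SE 0.09). It was the 1 gene of the 6 that was lower without overlap (3.57% of all probe sets).

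Genes that carry or bind antibodies also showed no common direction, with 5 of 9 higher, a median of 0.01 and 0 passed (0% of all probe sets). Pigr, which moves polymeric IgA and IgM across epithelia, differed by -0.06 (SE 0.16). Fcgrt, the receptor that protects IgG from breakdown, differed by -0.03 (SE 0.17), and the inhibitory IgG receptor Fcgr2b by -0.30 (SE 0.15). Fcer1g, the signalling chain shared by several Fc receptors, stood at 9.93, 9.84 and 9.38 in Balb/c and at 9.94, 10.53 and 10.11 in Balb/cBy. Its difference was 0.48 (SE 0.20). It was the 1 gene of the 9 higher without overlap (4.35% of all probe sets), although Balb/c replicate 1 and Balb/cBy replicate 1 were nearly equal.

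T cell receptor segments are the closest relatives of immunoglobulins on the array, being rearranged in the same manner. Of 22 such probe sets, of which 20 held distinct values, 9 were higher in Balb/cBy, with a median difference of -0.02 and a range from -0.66 to 0.31. The groups did not overlap with Balb/cBy higher in 1 (4.35% of all probe sets), and with Balb/cBy lower in 4 (3.57% of all). Their SD had a median of 0.12 among Balb/c arrays and of 0.15 among Balb/cBy arrays. The difference between these segments and the immunoglobulins was not tested.

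Markers of other cells of the liver stood as follows, with 0 passed in any list (0% of all probe sets). T and NK cell markers had a median of -0.05 (3 of 15 higher), with Cd3d and Cd4, subunit and coreceptor of the T cell receptor complex, at -0.22 (SE 0.14) and -0.24 (SE 0.15). Kupffer cell markers had a median of 0.05 (6 of 11 higher), and the mean of the list ranged from 9.30 to 10.09 in Balb/c and from 9.51 to 9.95 in Balb/cBy. Within Balb/cBy the list mean was lowest in replicate 1, at 9.51, 9.82 and 9.95 for replicates 1, 2 and 3, while a Balb/c array held the highest value of all 6. Vsig4, a complement receptor of Kupffer cells, was at 0.41 (SE 0.17), the largest difference upward of this list, and Marco at -0.24 (SE 0.16). The groups overlapped in both. The part of these cells in the immunoglobulin values was not tested.

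Neutrophil markers had a median of 0.11 (7 of 10 higher), led by Retnlg at 0.40 (SE 0.12) and S100a8 at 0.29 (SE 0.13). Endothelial markers had a median of 0.06 (5 of 7 higher) and hepatocyte markers of 0.02 (5 of 9 higher). In both lists, too, Balb/cBy replicate 1 had the lowest mean of the 3 and replicate 3 the highest of all 6 arrays: endothelial list means were 9.76, 9.89 and 10.11 in Balb/cBy replicates 1, 2 and 3 against 9.80 to 9.92 in Balb/c. Hepatocyte list means were 13.52, 13.61 and 13.75 against 13.57 to 13.67. Replicate 1 was the lowest Balb/cBy array for 11 of 11 Kupffer cell, 6 of 7 endothelial and 7 of 9 hepatocyte markers, as for 31 of the 35 immunoglobulin probe sets. The share was 33.5% over all probe sets. By level it was 31.1% with a mean under 6, 20.3% from 6 to under 8 and 48.4% from 8 up. In the same bins it held for 7 of 7, 12 of 14 and 12 of 14 immunoglobulin probe sets. Other counts were 2 of 16 B cell, 5 of 14 plasma cell, 3 of 15 T and NK cell and 3 of 10 neutrophil markers. They were 2 of 22 T cell receptor segments and 6 of 9 genes that carry or bind antibodies. The part of the order shared with Kupffer cell, endothelial and hepatocyte markers in the immunoglobulin values was not tested. The 4 measured markers of lymphoid stroma had a median of 0.07, with Cxcl13, a chemokine that attracts B cells to follicles, at 0.31 (SE 0.17). It stood at 9.02, 8.98 and 8.58 in Balb/c and at 9.01, 9.45 and 9.05 in Balb/cBy, with overlap. The 2 measured erythroid markers, Slc4a1 and Epb42, were at 0.18 (SE 0.11) and 0.03 (SE 0.10).

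**Figure D4:**
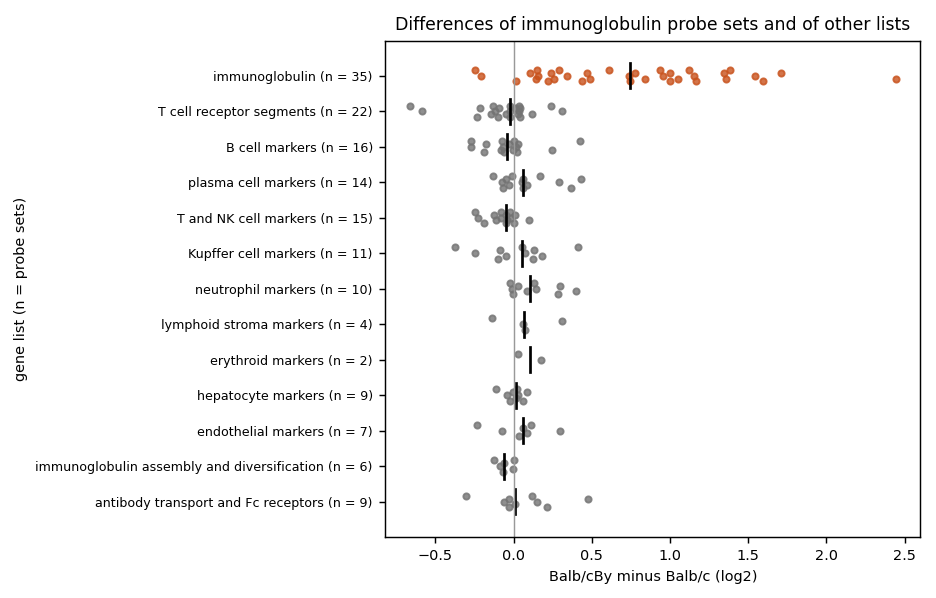
Difference Balb/cBy minus Balb/c (log2, horizontal axis) of each probe set of the immunoglobulin family, of T cell receptor segments and of the gene lists (vertical axis); points are probe sets, and black bars are the medians. The immunoglobulin median is 0.74, while the medians of the other lists lie between -0.06 and 0.11.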

How the data were processed

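Liver RNA of 6 mice was hybridised to one-colour Affymetrix arrays after labelling of 500 ng, per the labels' protocols. The deposited log2 values per probe set were made by the authors with RMA, per the submitters' processing notes. The sources used here do not give its version, the annotation or any filter. The values themselves showed the log2 scale. Groups came from the titles. Gene symbols came from GEO's platform annotation, which can be old: 23521 probe sets had 1 symbol, 1814 several, and 16010 were unnamed here. All 24 gene identifiers of the immunoglobulin probe sets were found in RefSeq's gene table (GRCm38.p6).

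All 41345 probe sets were fitted one by one with lmFit and eBayes of limma 3.58.1 (R 4.3.3), Balb/cBy minus Balb/c, without covariate or filter, with Benjamini-Hochberg adjustment and a threshold of 0.05. SE is the moderated standard error. For the 11 lists (103 of 120 entries measured), the probe set with the highest mean per gene was used. The script was tested on simulated data. For arrays, their number limits the precision.

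Members and lists were chosen with earlier results of these data known. Named were all constant region probe sets and Jchain, the 8 other members with the largest difference upward without overlap (there were 0 downward), the 8 in which 1 array exceeded the rest most, preset genes of the B lineage and antibody transport lists, further genes of those lists without overlap, and up to 2 genes of each other list. Other members, and Pax5, Cd22, Bank1, Ly6d, Fkbp11 and Txndc5, were named after their values were seen. Alternatives were other normalizations, filters, variance models, array weights, a replicate block and leaving out each array.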

Additional observations from a re-analysis of the deposited data

How the results depend on the processing

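The precision is limited by 3 arrays a group. In every setting tried, 0 immunoglobulin probe sets passed an adjusted p of 0.05 in limma, and 0 passed 0.1 with all arrays. Over all probe sets 0 passed, except 1 without Balb/c replicate 3. The count with a higher mean in Balb/cBy was 33 of 35 with all probe sets. It was 21 with 1 probe set per gene and 15 with a mean at or above the median of all probe sets, where only 21 and 16 members were tested. Leaving out each array in turn gave 31 to 33 higher, 20 to 29 without overlap with Balb/cBy higher (chosen after seeing the data; 6.83% to 12% of all probe sets were then apart in that direction) and a median difference from 0.61 to 0.86. Recentring the arrays gave a median of 0.76 and a repeated quantile normalization 0.75. The mu median was 0.29 without Balb/cBy replicate 3, the heavy variable median 0.23 without Balb/cBy replicate 1, and the gamma median ranged from -0.19 without Balb/c replicate 3 to 0.00 without Balb/c replicate 2. These class medians, the others and the differences of the 23 members named by rule moved by less than the spread between replicates in all settings, which is wide here. Same-numbered arrays had correlations of deviations of -0.21, -0.17 and -0.25, and differently numbered arrays from 0.03 to 0.17. Deviations from means of 3 arrays cannot decide whether the numbers stand for a shared handling of the mice or arrays. With a replicate block, 0 members were past the threshold. Since each number has 1 array per substrain, the block cannot change any difference, and the median of 0.74 is no check.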

Other observations

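Probe sets named Igh-VS107, an older name of a heavy chain variable segment, fall outside the naming rule of the family. One stood at 6.92, 7.35 and 7.43 in Balb/c and at 7.46, 8.42 and 8.52 in Balb/cBy, a difference of 0.90 (SE 0.29) without overlap and with Balb/cBy replicate 1 lowest of its group. The other differed by 0.15 (SE 0.21), with overlap.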
